A study of Mus musculus with 4 samples.

Results

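The 10 Notch pathway genes described here comprise the receptors Notch1, Notch2 and Notch3, the ligands Dll1, Dll4, Jag1 and Jag2, the DNA-binding effector Rbpj, and the basic helix-loop-helix factors Hes1 and Hes6. They were listed by gene symbol from the 55487 genes in the tables, by a rule that uses no measured value, although earlier results of these data were known when they and the other lists were drawn up. All 10 passed edgeR's filter on low counts and belong to the 17155 genes tested. RNA-seq was performed on mouse small intestinal (SI) organoids, which are epithelial cultures grown in Matrigel from isolated crypts in IntestiCult medium. Both groups had been infected with a lentivirus and selected with puromycin at 2 μg/ml. In 2 libraries the lentivirus expressed a miRNA mimic control (replicates 1 and 2), and in the other 2 it expressed a miR-181a-5p mimic (replicates 3 and 4). Selection acts on a mixed population of transduced cells and not on a clone. The paper names C57BL/6 for the mice it injected in vivo, and its organoid methods name no strain. The sources used here do not give the age of the animals behind these cultures, or whether replicate libraries derive from independent infections, so a p-value measures only the spread between libraries.

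Notch signaling passes between touching cells. A Delta or Jagged ligand on 1 cell pulls on a Notch receptor of its neighbour, the receptor is cleaved by an ADAM protease and then by gamma-secretase, and its freed intracellular domain joins RBPJ on DNA to switch on genes such as Hes1. In the intestinal crypt, active Notch keeps stem cells and favours the absorptive (enterocyte) fate. Cells without it express Atoh1, show Delta ligands to their neighbours and become secretory cells, such as Paneth, goblet and enteroendocrine cells.

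The mimic supplies mature miR-181a-5p, a miRNA that pairs through its seed (bases 2 to 8) with mRNAs. Its sequence is shown, with the seed in capitals, because it defines which members carry a match in the 3' untranslated region (UTR). The sequence is from RefSeq (GRCm38.p6), where the miRNA is encoded on the plus strand at chr1:137966468-137966490 and again at chr2:38852741-38852763.
miR-181a-5p: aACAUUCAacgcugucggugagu
The reverse complement of the seed is TGAATGT (a 7mer-m8 match), and TGAATGTA is the longer 8mer match. In the longest annotated 3' UTR of each gene (GENCODE, GRCm38), read on the strand of the mRNA, 2 of the 10 members had either match, Notch2 and Jag1, or 20.0%. Among all 12847 tested genes with a 3' UTR the share was 18.39%, so the share among the members was near that of all genes, and in a wider list of Notch pathway genes described further on it was 19.23%. Rbpj had only the weaker 7mer-A1 match GAATGTA. The 3 stretches below show the matched bases in capitals within their flanking sequence. The Notch2 match starts at base 2630 of a UTR of 2917 bases and lies on the plus strand within chr3:98150063-98150092. That of Jag1 starts at base 213 of 1568 and lies on the minus strand within chr2:137082794-137082822. That of Rbpj starts at base 2375 of 3742 and lies on the plus strand within chr5:53655984-53656012.
Notch2 8mer: aaccagcgcgtTGAATGTAcgaggactgtt
Jag1 7mer-m8: gcaaaaactagTGAATGTgccctggtgtc
Rbpj 7mer-A1: acaaagttcaaGAATGTAacaataaaggc
A match is a description of the letters and was not tested as a binding site. Over all tested genes with a 3' UTR, the median log2 fold change (mimic over control) was 0.026 with either match and 0.028 without. For the 8mer match alone the medians were 0.030 with it and 0.027 without. Notch2 and Jag1, the carriers of the stronger matches, differed in opposite directions between the groups, as their values show.

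The libraries held between 31104884 and 38111731 expected counts, which are RSEM's estimates of reads per gene. Their TMM scaling factors lay between 0.98 and 1.01, and the common biological coefficient of variation was 0.13. Over all tested genes the chi-square per degree of freedom between the libraries of a group was 33.9 for the controls and 17.8 with the mimic, so no library repeated another. Epithelial markers (Epcam, Cdh1, Krt8, Krt18, Krt19 and Cldn7) summed to 2688 to 3193 TPM per library. The summed level of 6 endothelial markers was 0.39 to 1 TPM, that of 9 mesenchymal markers 0.56 to 0.86 TPM and that of 6 leukocyte markers 0.14 to 0.28 TPM. The endothelial genes Cdh5, Kdr and Emcn and the collagen genes Col1a2 and Col3a1 were listed at 0 TPM, and Ptprc was at most 0.04 TPM.

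Per transcript length, Hes1 was the most abundant of the 10 genes. TPM, an abundance whose total is alike in all libraries, corrects for length and was used wherever levels of different genes are compared. Hes1, a repressor that Notch switches on and that restrains secretory fate, measured 68.3 and 56.6 TPM in control organoids, against 63.9 and 90.5 under the mimic. Hes6, a related factor that antagonizes Hes1 and is not itself a standard Notch target, followed at 29.6 to 37.7 TPM. Rbpj, Dll1 and Notch1 lay close together, with means over the 4 libraries of 18.2, 16.9 and 16.7 TPM. Their ranges overlapped, and Rbpj exceeded Dll1 in 3 of 4 libraries and Dll1 exceeded Notch1 in 2 of 4. Jag1 (mean 11.04 TPM) and Jag2 (7.88 TPM) overlapped in range but kept their order in each library, as did Notch2 (4.77 TPM) and Dll4 (3.53 TPM). Notch3, a receptor known mainly from vascular smooth muscle, was lowest at 0.33 to 0.71 TPM. The other steps in the order, from Hes1 to Hes6, Hes6 to Rbpj, Notch1 to Jag1, Jag2 to Notch2 and Dll4 to Notch3, had ranges that did not overlap.

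**Figure D1:**
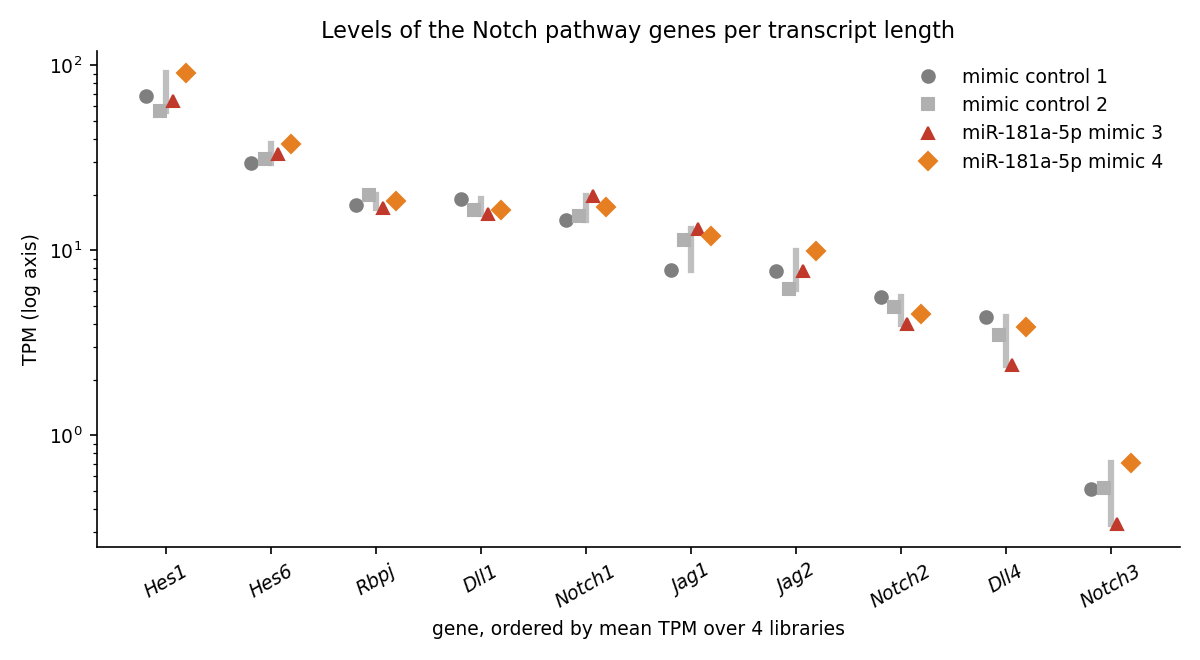
TPM of each Notch pathway gene on a log axis, ordered by the mean over 4 libraries; each symbol is 1 library and each grey line spans the lowest to the highest library. Hes1 lies highest (56.6 to 90.5 TPM), Notch3 lowest (0.33 to 0.71 TPM), and Rbpj, Dll1 and Notch1 overlap.

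Mimic and control were compared by edgeR with the quasi-likelihood test, and p-values were adjusted over all 17155 genes by the Benjamini-Hochberg method. None of the 10 members had an adjusted p under 0.05, against 3.57% of all tested genes, and none had in addition a fold change of at least 2, against 2.06%. The lowest adjusted p among the members was 0.0898, for Notch2. DESeq2 also called none of them, and edgeR's exact and likelihood-ratio tests called Notch2 alone. At an unadjusted p under 0.05, Jag1 and Jag2 were higher with the mimic, against 11.8% of all genes, and Notch2 was lower, against 13.0%. Log2 fold changes were above 0 for 6 members and below 0 for 4, with a median of 0.08 against -0.01 for all tested genes. On normalized CPM (counts per library size after TMM correction) the groups did not overlap for 3 members that were higher with the mimic (Jag1, Jag2 and Hes6) and for 3 that were lower (Notch2, Dll1 and Dll4). Over all tested genes the groups were apart in this way for 28.9% upward and 29.5% downward. On TPM the groups were apart for 3 members upward (Notch1, Jag1 and Hes6) and for 1 downward (Notch2), against 31.6% and 22.4% of all tested genes, so Jag1, Hes6 and Notch2 were apart on both scales. The 95% intervals were computed for each gene alone, from 2 libraries per group. They are not adjusted for the number of genes and do not exclude a larger change. All 10 lay within a 2-fold change in either direction and 5 within a 1.5-fold change, and the outermost bounds were 0.566-fold for Dll4 and 1.72-fold for Jag1. In bulk organoid RNA, fewer cells of a type and less RNA per cell cannot be told apart.

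**Figure D2:**
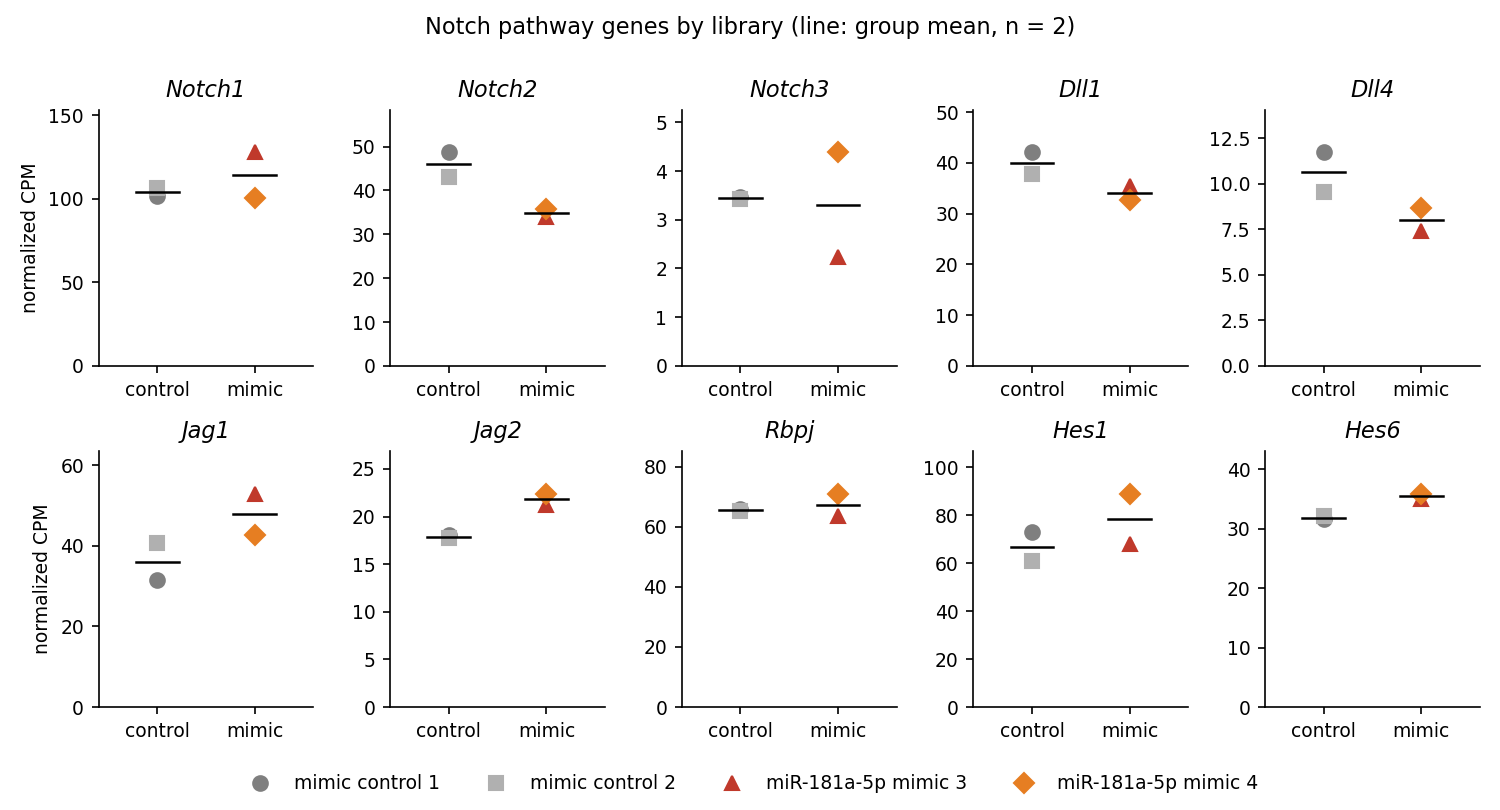
Normalized CPM of the 10 Notch pathway genes in the 2 mimic control and 2 miR-181a-5p mimic libraries, on axes that start at 0; each symbol is 1 library and each line a group mean. The groups do not overlap for Notch2, Dll1 and Dll4, lower with the mimic, and for Jag1, Jag2 and Hes6, higher with it.

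Notch1 and Notch2 are the receptors known to act in the intestinal epithelium. Notch2 (ENSMUSG00000027878, chromosome 3, 98013527 to 98150361, GRCm38) measured 48.7 and 43.2 normalized CPM in control organoids, against 34.0 and 35.7 under the mimic. Both mimic libraries lay below both controls, and the distance between the groups exceeded the distance within either. The means were 45.9 ± 3.88 and 34.9 ± 1.22 (SD, n = 2 each). The log2 fold change was -0.40 (standard error, SE, 0.11, 95% interval -0.66 to -0.14), or 0.759-fold, with an adjusted p of 0.0898 from edgeR's quasi-likelihood test. Among the alternatives with all libraries, edgeR's exact test and its likelihood-ratio test put Notch2 under an adjusted p of 0.05. Those tests did so for 10.4% and 10.9% of all genes. Without control replicate 2 the log2 fold change was -0.48 with an adjusted p of 0.0350, in a fit that called 13.0% of all genes. Over the 13 alternatives with all libraries the adjusted p ran from 0.0382 to 0.559.

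Notch1 (ENSMUSG00000026923, chromosome 2, 26457903 to 26516663) measured 102 and 107 normalized CPM in control organoids, against 128 and 100 under the mimic. Mimic replicate 3 lay above the other libraries, while mimic replicate 4 lay below both controls. The log2 fold change was 0.13 (SE 0.13, 95% interval -0.17 to 0.43, adjusted p = 0.556 by edgeR), and it was -0.05 without mimic replicate 3. In TPM the same gene had 14.6 and 15.3 in control organoids, against 19.7 and 17.1 under the mimic, so the groups were apart on that scale and not on CPM. Notch3 (ENSMUSG00000038146, chromosome 17, 32120820 to 32166852) measured 3.47 and 3.42 normalized CPM in control organoids, against 2.24 and 4.38 under the mimic. Its mimic libraries lay on opposite sides of the controls. Its log2 fold change of -0.05 had an SE of 0.32 and became 0.35 without mimic replicate 3.

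Notch1 supplied most receptor transcripts in every library. Of the summed TPM of the 3 receptors, Notch1 made up 70.4% and 73.7% in control organoids, against 82.0% and 76.6% under the mimic. Notch2 made up 27.1% and 23.8% in control organoids, against 16.6% and 20.2% under the mimic. The ratio of Notch1 to Notch2 TPM was 2.59 and 3.09 in control organoids, against 4.95 and 3.79 under the mimic, so the groups did not overlap. At 2 against 2 libraries the smallest p an exact permutation test of such a ratio can give is 0.333, and no p is given. Taken singly, 31.6% of all tested genes were apart upward on TPM and 22.4% downward. The summed receptor TPM was 20.7 and 20.8 in control organoids, against 24.1 and 22.3 under the mimic.

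Reads of other annotated transcripts at the Notch2 locus were also counted. Gm42819, an unclassified transcript model on the same strand that lies wholly in an intron of Notch2, measured 47 and 32 counts in control organoids, against 21 and 16 under the mimic (log2 fold change -1.03, SE 0.36, adjusted p = 0.141 by edgeR). Gm42820, another such model that overlaps a Notch2 exon, measured 37.7 and 22.3 counts in control organoids, against 17.0 and 18.5 under the mimic. Both models were named after their values were seen. Both were lower in each mimic library than in either control, and neither passed the test.

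The 4 ligands divided by family only in the sign of their estimates. The Delta-like ligands, which secretory and Paneth cells show to neighbouring stem cells, had negative log2 fold changes, and the Jagged ligands had positive ones. The signs held under each of the 13 alternative methods and with each library left out. Those fits reuse the same libraries, so an unchanged sign is no independent evidence of a difference. With all 4 libraries none of these ligands was called. On TPM the groups overlapped for Dll1, Dll4 and Jag2 and were apart for Jag1. Dll1 (ENSMUSG00000014773, chromosome 17, 15367354 to 15376872) measured 42.1 and 37.8 normalized CPM in control organoids, against 35.5 and 32.7 under the mimic. Both mimic libraries lay below both controls, by a margin smaller than the distance between the controls. Dll1 had a log2 fold change of -0.23 (SE 0.11, 95% interval -0.49 to 0.03, adjusted p = 0.254 by edgeR). In TPM the groups overlapped, with 18.8 and 16.5 in control organoids, against 15.7 and 16.5 under the mimic.

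Dll4 (ENSMUSG00000027314, chromosome 2, 119325784 to 119335962) measured 11.7 and 9.52 normalized CPM in control organoids, against 7.38 and 8.68 under the mimic. Its groups were apart, though control replicate 2 and mimic replicate 4 lay close. Its log2 fold change was -0.40 (SE 0.18, 95% interval -0.82 to 0.01, adjusted p = 0.214 by edgeR). Its TPM of 4.35 and 3.50 in the controls overlapped with 2.40 and 3.85 with the mimic. The start of Dll4 overlaps Gm14207, a noncoding transcript on the opposite strand with 145 and 87 counts in control organoids, against 50.3 and 82.0 under the mimic. Whether counting used strand is not given in the sources used here, so reads of these genes may not be told apart.

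Jag1 (ENSMUSG00000027276, chromosome 2, 137081456 to 137116644), a ligand with a 7mer-m8 seed match, measured 31.5 and 40.7 normalized CPM in control organoids, against 53.0 and 42.7 under the mimic. The groups were apart by the distance between control replicate 2 and mimic replicate 4, which was smaller than the spread within either group. The means were 36.1 ± 6.47 and 47.8 ± 7.31 (SD, n = 2 each), and the log2 fold change was 0.41 (SE 0.16, 95% interval 0.04 to 0.78, adjusted p = 0.171 by edgeR). The value was 0.23 without control replicate 1. Without control replicate 2 it was 0.61, with an adjusted p of 0.0315, whereas the alternatives with all libraries gave 0.128 to 0.519. Jag2 (ENSMUSG00000002799, chromosome 12, 112907819 to 112929776) was steadier, with 18.02 and 17.78 normalized CPM in control organoids, against 21.2 and 22.4 under the mimic. Both mimic libraries lay above both controls by more than the spread within a group. Its log2 fold change was 0.28 (SE 0.12, 95% interval 0.0046 to 0.56, adjusted p = 0.196 by edgeR) and stayed between 0.25 and 0.33 when each library was left out. In TPM, Jag2 overlapped between groups (7.77 and 6.15 against 7.69 and 9.89).

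Jag1 and Jag2 together made up 40.2% and 46.7% of the summed ligand TPM in control organoids, against 53.5% and 51.7% under the mimic. Dll1 alone made up 48.6% and 44.0% in control organoids, against 40.3% and 39.2% under the mimic. The groups did not overlap in the share of Jag1 plus Jag2 or in that of Dll1. These 2 shares have the same denominator and are not independent. At 2 against 2 libraries an exact permutation test gives no p below 0.333, and no p is given. Of all tested genes, 31.6% were apart upward on TPM and 22.4% downward. The groups did overlap in the separate shares of Jag1 (20.1% and 30.3% against 33.8% and 28.3%) and of Jag2 (20.1% and 16.4% against 19.8% and 23.5%). They also overlapped in the ratio of Jag1 to Dll4 TPM (1.79 and 3.24 against 5.46 and 3.10). The ligand total was 38.7 and 37.5 TPM in control organoids, against 38.9 and 42.2 under the mimic, so the groups were apart in the total only by the small distance between control replicate 1 and mimic replicate 3.

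**Figure D3:**
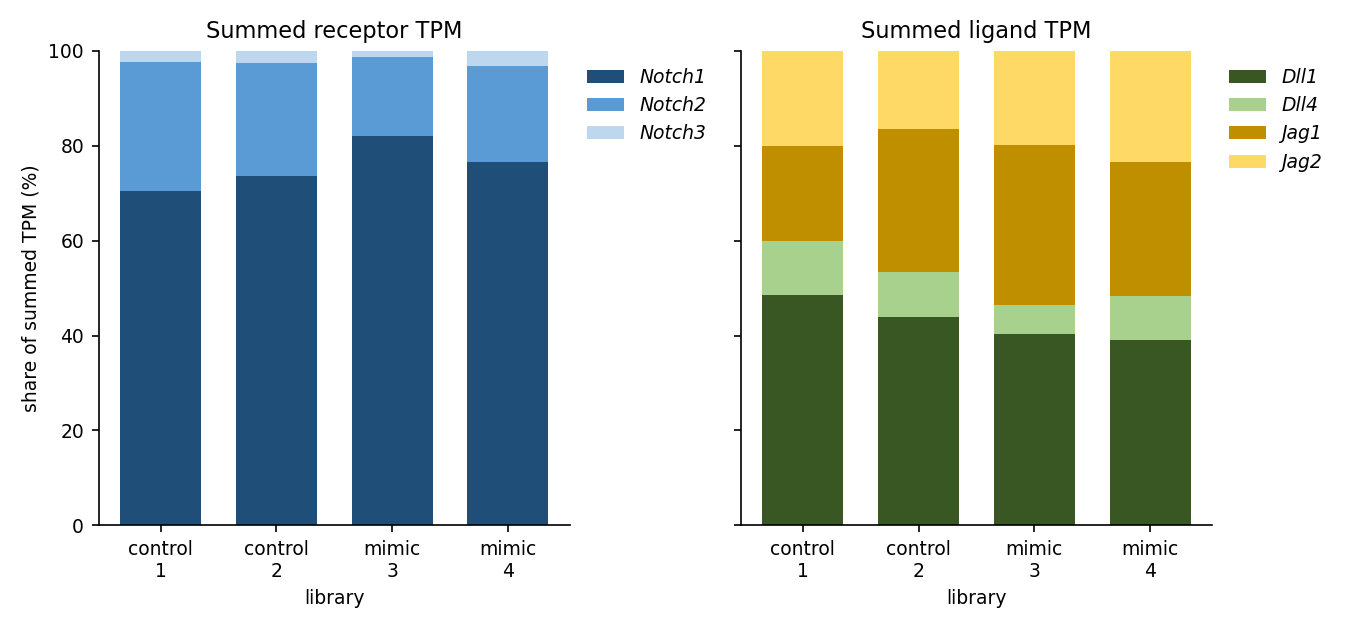
Share of each gene in the summed TPM of the 3 receptors (left) and the 4 ligands (right), 1 stacked bar per library. Notch1 takes 70.4% and 73.7% of receptor TPM in the controls against 82.0% and 76.6% with the mimic, and Jag1 plus Jag2 take 40.2% and 46.7% of ligand TPM against 53.5% and 51.7%.

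Rbpj (ENSMUSG00000039191, chromosome 5, 53466152 to 53657362), through which the signal of every Notch receptor reaches DNA, had the log2 fold change nearest 0 of the 10 genes. It measured 66.0 and 65.1 normalized CPM in control organoids, against 63.5 and 71.1 under the mimic. The controls lay between the mimic libraries. The log2 fold change was 0.04 (SE 0.10), with a 95% interval from -0.20 to 0.28, or 0.871-fold to 1.21-fold. Its sign was negative with upper-quartile factors, in the fits on TPM and without mimic replicate 4. The processed pseudogene Rbpj-ps3 measured 142.5 and 77.5 counts in control organoids, against 85.0 and 74.7 under the mimic, set against 1989 to 2531 for Rbpj, and the counts of Rbpj were fractional in all 4 libraries, so some of its reads were shared out among like sequences.

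Hes1 (ENSMUSG00000022528, chromosome 16, 30064384 to 30067796) measured 72.8 and 60.8 normalized CPM in control organoids, against 67.8 and 89.0 under the mimic. Mimic replicate 4 lay above the other libraries and mimic replicate 3 lay between the controls. Its value on the log2 scale was 0.23 (SE 0.15, 95% interval -0.12 to 0.59, adjusted p = 0.381 by edgeR). It was 0.02 without mimic replicate 4 and 0.42 without mimic replicate 3. Hes6 (ENSMUSG00000067071, chromosome 1, 91411483 to 91414038) measured 31.6 and 32.1 normalized CPM in control organoids, against 35.0 and 35.9 under the mimic. Its groups were apart and its replicates close, yet the change was small. It had a log2 fold change of 0.15 (SE 0.10, 95% interval -0.09 to 0.40, adjusted p = 0.390 by edgeR).

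**Figure D4:**
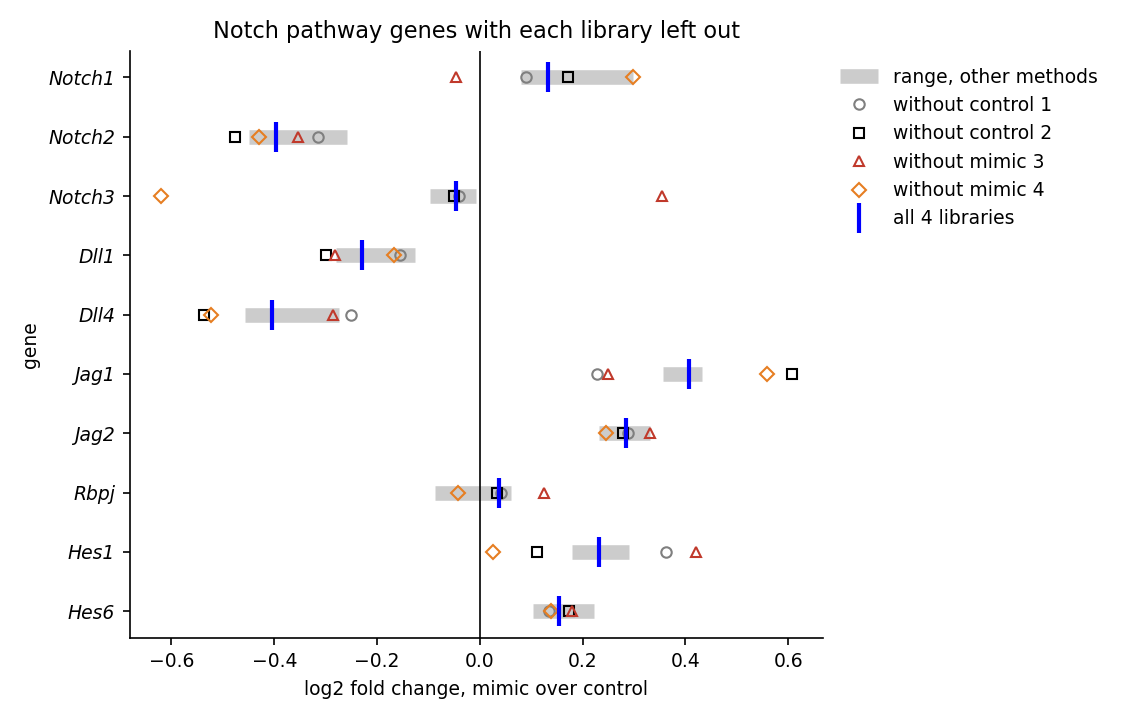
Log2 fold change (mimic over control) of the 10 Notch pathway genes with all 4 libraries (blue bars), with each library left out in turn (open symbols) and over up to 13 other methods (grey range). Notch2, Dll1 and Dll4 stay below 0 and Jag1, Jag2, Hes1 and Hes6 stay above 0 throughout, while Notch1, Notch3 and Rbpj cross 0.

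A wider list of 61 Notch pathway genes, grouped by role, showed the same absence of calls by this test. Of these, 52 were tested and 0 had an adjusted p under 0.05, while edgeR's exact and likelihood-ratio tests called 4 each (Nrarp, Mib2, Tle1 and Numbl), against 10.4% and 10.9% of all genes. At an unadjusted p under 0.05, 6 genes showed higher and 2 lower levels with the mimic, where all tested genes gave 11.8% and 13.0%, and the median log2 fold change was 0.05 against -0.01 for all tested genes. The 5 genes of lowest p are described. Nrarp, a Notch target whose product helps to remove the receptor's intracellular domain, measured 21.3 and 25.9 normalized CPM in control organoids, against 36.0 and 35.3 under the mimic. The groups lay well apart, with a log2 fold change of 0.60 (SE 0.13, 95% interval 0.30 to 0.90, adjusted p = 0.0525 by edgeR), the lowest adjusted p on the list. Mib2, an E3 ligase that helps ligands to be taken up by the cell that shows them, measured 35.3 and 33.8 normalized CPM in control organoids, against 22.4 and 25.7 under the mimic. Its log2 fold change was -0.52 (SE 0.12, adjusted p = 0.0593 by edgeR), whereas that of Mib1, the principal ligase of this step, was 0.04 (SE 0.09). Mib1 and the genes of the list named after Numbl were chosen after their values were seen.

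The corepressor gene Tle1 measured 60.9 and 65.9 normalized CPM in control organoids, against 86.7 and 77.5 under the mimic (log2 fold change 0.37, adjusted p = 0.0921 by edgeR). The corepressor gene Ctbp1 measured 164 and 175 normalized CPM in control organoids, against 204 and 207 under the mimic (log2 fold change 0.28, adjusted p = 0.128 by edgeR). Numbl, related to the Notch inhibitor Numb, was rare, with 64 and 34 counts in control organoids, against 19 and 21 under the mimic (log2 fold change -1.22, SE 0.36, adjusted p = 0.102 by edgeR). The groups did not overlap for these 5 genes, which were named for their low p. Over the 52 tested genes they were apart for 18 upward and 10 downward, and over all genes for 28.9% and 29.5%. Nrarp and Mib2 passed an adjusted p of 0.05 by DESeq2, which called 9.32% of the genes it gave an adjusted p.

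Within the list, the receptor cleavage machinery (Furin, Adam10, Adam17 and the gamma-secretase genes) had 8 of 10 log2 fold changes above 0, from -0.95 for Aph1c to 0.35 for Aph1b. Over all 17155 tested genes 8333 were above 0. The values of Ncstn, Psenen, Aph1a, Adam17 and Psen2 ran from 0.04 for Ncstn to 0.09 for Psen2, each smaller than its SE. Aph1b and Aph1c are near-identical neighbours whose reads may be divided between them. The coactivator genes (Maml1 to Maml3, Ep300, Crebbp, Kat2a, Kat2b and Snw1) divided evenly, 4 above 0 and 4 below. The corepressor genes had 7 of 11 above 0. The other factors of the Hes and Hey families were scarce. Of 7 such genes only Hes2 passed the filter, at a mean of 1.26 TPM, and Hes5 had 4 counts in each control and 3.59 and 13.4 with the mimic. Heyl was listed at 0 counts in all 4 libraries. Notch4, the endothelial receptor, averaged 0.775 TPM.

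Factors of secretory fate that act downstream of Notch or beside it were also examined. Of 12 such genes 11 were tested and 0 had an adjusted p under 0.05. At an unadjusted p under 0.05, 3 were higher with the mimic, Spdef, Gfi1 and Atoh1, and 0 were lower, where all tested genes gave 11.8% and 13.0%. With so few genes this describes those listed and is no test of the list. The median log2 fold change over the 11 genes was 0.17. Atoh1, the master factor of the secretory lineage, measured 3.60 and 3.55 normalized CPM in control organoids, against 5.21 and 5.76 under the mimic. Its groups lay apart by more than the spread within either, at 110 to 205 counts per library, with a log2 fold change of 0.62 (SE 0.20, 95% interval 0.16 to 1.08, adjusted p = 0.117 by edgeR).

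Spdef, a goblet and Paneth cell factor that acts after Atoh1, measured 5.66 and 5.55 normalized CPM in control organoids, against 9.64 and 8.85 under the mimic (log2 fold change 0.72, SE 0.17, adjusted p = 0.0613 by edgeR). Gfi1, another factor that acts after Atoh1, measured 33 and 23 counts in control organoids, against 55 and 67 under the mimic (log2 fold change 1.17, SE 0.30, adjusted p = 0.0745 by edgeR). Both mimic libraries exceeded both controls for 4 of the 11 genes (Atoh1, Spdef, Gfi1 and Sox4), and for 0 the reverse held, against 28.9% and 29.5% of all genes. By edgeR's exact and likelihood-ratio tests Spdef and Gfi1 had an adjusted p under 0.05, as did 10.4% and 10.9% of all genes, and by DESeq2 Spdef did, as did 9.32%. Neurog3, the factor of the enteroendocrine lineage, differed between the controls themselves, with 15.6 and 9.75 normalized CPM, and had 7.76 and 10.4 with the mimic (log2 fold change -0.49, adjusted p = 0.271 by edgeR). It overlaps Fam241b on the opposite strand (362 to 555 counts), and its log2 fold change depended on the control left out. It was -0.78 without control replicate 2 (adjusted p = 0.0356, in the fit that called 13.0% of all genes) and -0.11 without control replicate 1 (adjusted p = 0.845). Sox4 measured 276 and 236 normalized CPM in control organoids, against 282 and 295 under the mimic (log2 fold change 0.17).

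**Figure D5:**
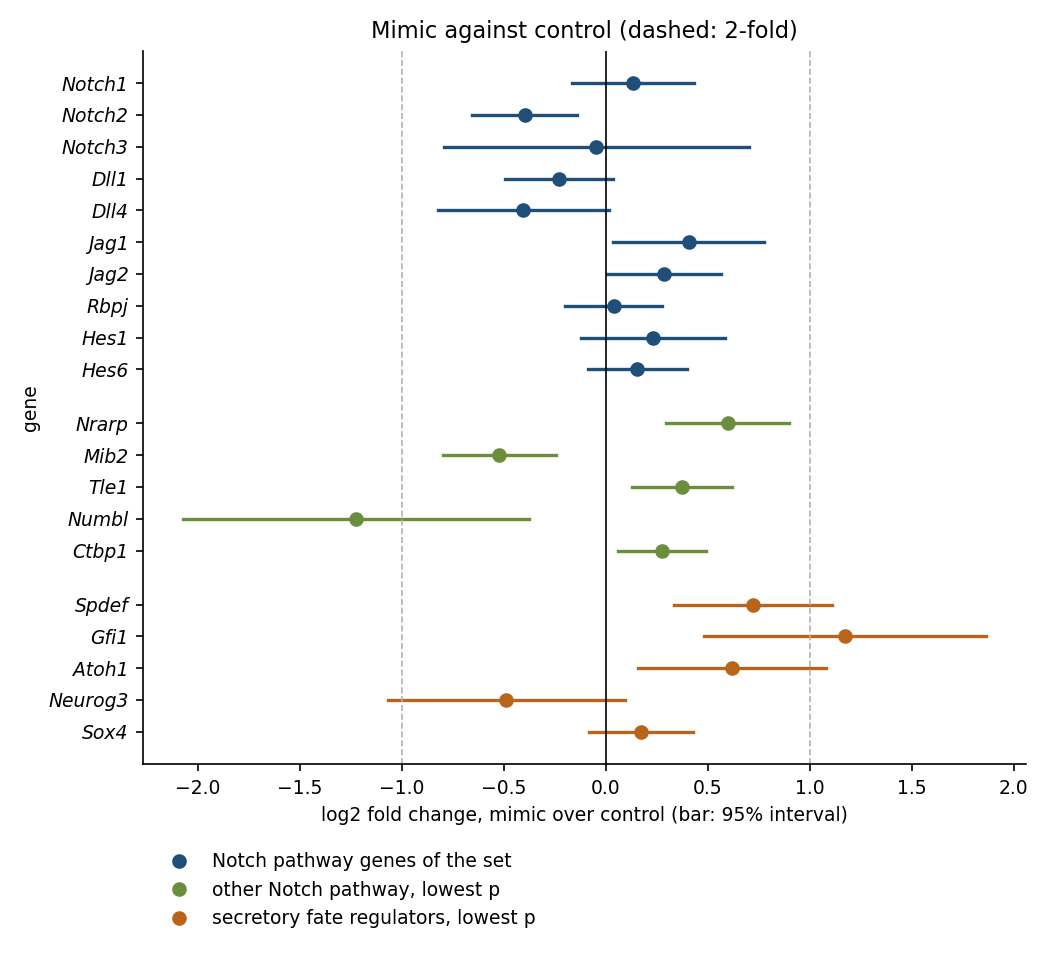
Log2 fold change (mimic over control) with its 95% interval for the 10 Notch pathway genes, the 5 other Notch pathway genes and the 5 secretory fate regulators of lowest p. All 10 intervals of the first group lie inside the dashed lines at a 2-fold change, and Atoh1, Gfi1 and Spdef lie above 0.

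Markers of the lineages on either side of the Notch decision varied between libraries of the same group. The summed TPM of 12 enterocyte markers was 3364 and 4644 in control organoids, against 2869 and 2857 under the mimic. That of 6 Paneth cell markers was 2233 and 1190 in control organoids, against 1225 and 1550 under the mimic, so control replicate 1 stood apart. That of 7 stem cell markers was 861 and 627 in control organoids, against 733 and 922 under the mimic. Over the 4 libraries, 7 goblet cell markers summed to 772 to 872 TPM, 8 enteroendocrine cell markers to 298 to 445 TPM and 6 tuft cell markers to 3.53 to 6.09 TPM. The brush border peptidase gene Anpep fell, from 1851 and 1245 normalized CPM in the controls to 289 and 412 with the mimic (log2 fold change -2.14, adjusted p = 0.00812 by edgeR). The stem cell gene Lgr5 also fell, from 402 and 312 to 97.99 and 176 normalized CPM (log2 fold change -1.38, adjusted p = 0.0369 by edgeR). These were the 2 marker genes with an adjusted p under 0.05. Within their lists, 8 of 12 enterocyte markers and 3 of 7 stem cell markers had log2 fold changes below 0. Further enterocyte markers were named after their values were seen. The 4 above 0 were Lct at 0.69 (adjusted p = 0.19 by edgeR), Sis at 0.16, Krt20 at 0.11 and Slc5a1 at 0.05. Among those below 0, Fabp1 was at -0.91 (adjusted p = 0.109 by edgeR) and Vil1 at -0.09. The other stem cell markers were named after their values were seen. Smoc2 was at 0.48 (SE 0.13, adjusted p = 0.0794 by edgeR), Slc12a2 at 0.26 (adjusted p = 0.228), Olfm4 at 0.22 (adjusted p = 0.742) and Axin2 at 0.05 (adjusted p = 0.862). Ascl2 at -0.49 (adjusted p = 0.272 by edgeR) and Rnf43 at -0.29 (adjusted p = 0.131) were lower, as Lgr5 was, with groups apart on normalized CPM. Anpep kept an adjusted p under 0.05 in 10 of 13 alternative methods and Lgr5 in 8 of 13. Of 7 goblet cell markers 4 lay above 0. Tff3 had a log2 fold change of -0.43 (adjusted p = 0.0511 by edgeR) and passed 0.05 in 5 of 13 alternative methods. Other goblet cell markers were also named after their values were seen. Agr2 had 0.55 (adjusted p = 0.0945) and Muc2 0.59 (adjusted p = 0.334), whereas Clca1 had -0.93 (adjusted p = 0.25) and Zg16 -1.19 (adjusted p = 0.403). Muc2 measured 88.05 and 83.4 normalized CPM in control organoids, against 184.8 and 73.4 under the mimic, so mimic replicate 4 lay below both controls. Of 6 Paneth cell markers 5 lay below 0. Ang4 was at -1.03 (adjusted p = 0.0512 by edgeR) and passed 0.05 in 4 of 13 alternative methods. Of 8 enteroendocrine cell markers 4 lay above 0. At an unadjusted p under 0.05, 2 of them were higher with the mimic and 0 lower, where all tested genes gave 11.8% and 13.0%. The 2 were Gcg at 0.78 (adjusted p = 0.0893 by edgeR) and Sct at 1.09 (adjusted p = 0.114), named for their low p. The part of these lineage differences in the values of the Notch pathway genes was not tested.

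The 6 letters TGGGAA, the core of the element that RBPJ binds, were sought on both strands in RefSeq windows from 250 bases before to 50 after each gene's start. Hes1 had no window. Of the other 9 members, only Rbpj held the core, against 28.31% of all genes with a window and 35.42% of the wider Notch list. No match says only that these letters are not in this window.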

How the data were processed

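RNA-seq libraries of mouse SI organoids carrying a mimic control (2 libraries) or a miR-181a-5p mimic (2 libraries) were analysed, with groups taken from the sample labels. Single-end reads (100 cycles) were trimmed with Trimmomatic and quantified with RSEM on GRCm38 (mm10) transcripts by the authors. An expected count is the number of reads that RSEM assigned to a gene, and the authors deposited these values unscaled. They also deposited TPM, which adjust for transcript length. Libraries were made from poly(A) RNA per the labels, and after removal of ribosomal RNA per the supplemental methods. The annotation release and the use of strand in counting are not given in the sources used here. Further columns that matched no sample (3 per file) were not used.

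Expected counts (31104884 to 38111731 per library) were rounded. The groups were compared in R 4.3.3 with edgeR 4.0.16, using filterByExpr, TMM factors, estimateDisp, the newer form of glmQLFit, and glmQLFTest, and p-values were adjusted by the Benjamini-Hochberg method for 17155 genes. To obtain the SE, the absolute log2 fold change was divided by the square root of F. Intervals use the fit's degrees of freedom. The steps were tested on simulated counts. Precision is set by the spread between 2 libraries per group rather than by depth.

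Results were recomputed with the exact test and the likelihood-ratio test of edgeR, with legacy and robust forms of the main test, DESeq2 1.42.0, scaling by RLE, by upper quartiles or by totals alone, no filter, at least 10 counts in every library, limma 3.58.1 on log2(TPM + 1) or log2(TPM + 0.1) for genes that reached 1 TPM in 2 libraries, log2(TPM + 1) without a filter, and leaving out each library. Fold changes on TPM understate changes of low genes. Symbols were matched by identifier for 55141 genes, and coordinates and 3' UTRs came from GENCODE release M21 (at least 50 bases, longest per gene). Of the 10 members, 9 matched the RefSeq promoter table. A 7mer-A1 match pairs with seed bases 2 to 7 and is followed by A.

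The members and lists were chosen with earlier results of these data known. All members were named, with, per list, each gene of adjusted p under 0.05 and those of lowest unadjusted p up to 5. The cell type marker lists were treated as 1 list for this. The level of mature miR-181a-5p was not analysed here. Plots were drawn with matplotlib 3.10.9.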

Additional observations from a re-analysis of the deposited data

How the results depend on the processing

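The count of called genes over the whole table was 612. It was 1788 by edgeR's exact test, 1864 by its likelihood-ratio test, 1298 by DESeq2 and 192 without a filter on low counts. By limma it was 75 on log2(TPM + 1), 27 on log2(TPM + 0.1) and 2 on log2(TPM + 1) without a filter. The median log2 fold change of all genes moved by less than 0.1 under each scaling. Of the 10 members, 0 were called, against 1 by the exact test and 1 by the likelihood-ratio test. Of the wider Notch list 0 were called, against 4 by each of those tests, 2 by DESeq2, 1 with upper-quartile factors and 1 with library totals. Of the secretory fate regulators 0 were called, against 2 by each of those tests and 1 by DESeq2. With a library left out, 1 group has a single library, which is assumed to vary like the other group. These fits called 373 to 2365 genes, 0 to 2 members, 0 to 6 genes of the wider list and 0 to 1 secretory fate regulators. Each of those highest counts came without control replicate 2, and the lowest count over all genes without mimic replicate 3.

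In 7 cases the members' estimates changed sign, in none past the threshold. Log2 fold changes with a library left out ran from -0.045 (without mimic replicate 3) to 0.299 for Notch1, from -0.620 to 0.354 (without mimic replicate 3) for Notch3, and from -0.042 (without mimic replicate 4) to 0.125 for Rbpj. Rbpj was at -0.0129 with upper-quartile factors, -0.0835 on log2(TPM + 1) with or without a filter and -0.0876 on log2(TPM + 0.1). With 8mer matches alone, 1 member (Notch2) had a miR-181a-5p seed match in place of 2, or 10% against 6.1% of all tested genes with a 3' UTR. With 7mer-A1 matches added, 3 members had one, or 30% against 23.41%. No paired analysis was possible because the groups share no replicate number. With 2 libraries per group, the width of the printed intervals sets the smallest difference that can be seen, and low counts of scarce genes such as Notch3 (69.8 to 156 per library) limit their precision further.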
